A study of Mus musculus with 4 samples.

Results

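Inflammatory cytokines and the enzymes that make prostaglandin E2 were followed in mBMSCs, adherent bone marrow-derived mesenchymal stem/progenitor cells of 3-month-old C57BL/6 mice (C57BL/6J in the study's methods). The genes are Il1a, Il1b and Il1rn of the interleukin-1 system, Tnf, the gp130 cytokines Il6, Il11, Lif and Osm, and the prostaglandin synthases Ptgs2 and Ptges. They were chosen by their names, as the rows of the deposited expression table that carry those symbols, and they are 10 of 24346 rows. RNA was compared between cells that had received a scrambled siRNA (siScr, 2 libraries) and cells that had received siRNA against ZBP1 (siZBP1, 2 libraries), all untreated otherwise and collected 72 h after transfection. The study obtained a pair of siRNAs against mouse ZBP1, and its methods do not say which was used for these libraries. The libraries of a group are duplicates that are not stated to come from separate mice, so the p-values measure the spread between these samples, which may be technical.

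Interleukin-1α and interleukin-1β, the products of Il1a and Il1b, signal through the receptor Il1r1 and its partner Il1rap, and the antagonist encoded by Il1rn occupies the same receptor without signalling. TNF signals through Tnfrsf1a and Tnfrsf1b. IL-6, IL-11, LIF and oncostatin M each use a receptor subunit of their own (Il6ra, Il11ra1, Lifr or Osmr) together with the shared subunit gp130, encoded by Il6st, and activate Stat3. Ptgs2, or COX-2, is the inducible cyclooxygenase that turns arachidonic acid into prostaglandin H2, and Ptges converts that into prostaglandin E2. In marrow, these cytokines and prostaglandin E2 are known to act on osteoclast formation, on stromal cells and on osteoblasts, and both stromal cells and macrophages can make them.

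Many cytokine transcripts are short lived and carry AU-rich elements, repeats of ATTTA in the DNA alphabet, in the 3′ UTR, where proteins of the Zfp36 family bind and start their decay. The longest 3′ UTR annotated among the coding transcripts of each gene was searched on the sense strand for ATTTA and TATTTAT, which contains it. The expression values were already known. TATTTAT was found in 8 of the 10 genes, and in 31.4% of the 10868 genes that passed the expression filter and have a 3′ UTR of at least 50 bases. Il1rn and Ptges held no ATTTA, in 3′ UTRs of 1864 and 3106 bases. The median density was 5.82 ATTTA per kb over the 10 genes and 1.37 per kb over the 10868 genes, whose 90th percentile was 4.12 per kb, so that the 6 densest genes lay above that percentile. The 30-base stretches with the most ATTTA are shown for 4 genes, because the transcripts with these repeats include one that rose (Il1b), one that fell (Il11) and others that were not called (Tnf and Ptgs2). Capitals mark ATTTA, and the letters come from the GENCODE M21 transcripts.
Tnf: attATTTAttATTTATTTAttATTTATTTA
Il1b: caaccacttacctATTTATTTAtgtATTTA
Il11: ctttaaaaccagatcttATTTATTTATTTA
Ptgs2: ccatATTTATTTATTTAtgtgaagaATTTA

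**Figure D1:**
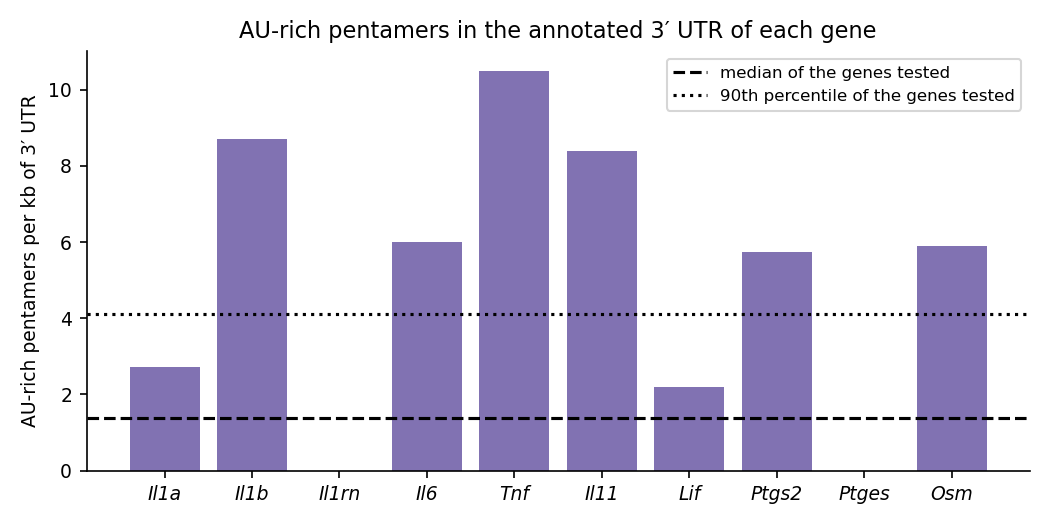
Number of ATTTA per kb of 3′ UTR (y axis) for each of the 10 genes (x axis), with the median (1.37, dashed) and the 90th percentile (4.12, dotted) of the 10868 genes tested that have a 3′ UTR. Tnf stands highest at 10.5 per kb, and Il1rn and Ptges stand at 0.

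RefSeq promoter windows on GRCm38.p6, from 250 bases before to 50 bases after a start site, were at hand for 9 of the genes and were searched on both strands, again with the expression values known. Osm had no entry. TGANTCA, the site of AP-1 factors, lay in a window of 5 genes (Il1a, Il1rn, Il6, Il11 and Lif) and in 7.81% of all 32851 windows. The κB consensus lay in those of Il6 and Lif (8.46% of all windows), TTGCNNAA, a C/EBP site, in those of Il6 and Ptgs2 (10.8%), and GAGGAAG, a PU.1 site, in those of Il1a and Tnf (13.6%). TATAAA lay in windows of Il1a, Il1b, Il1rn and Tnf (13.6%). Of the words of TCF factors, CTTTGTA lay in Il1rn (3.63%), CTTTGTT in Il6 (5.85%), and CTTTGAA and CTTTGAT in none of the 9 genes (5.14% and 3.73%). The 9 genes have 12 windows. A gene was counted with a match in any of its windows, whereas the percentages are of windows, so these are unlike units. These matches are descriptions of letters, and binding was not measured. The windows of the 3 genes that passed the test are shown because their levels moved. Capitals mark TATAAA in Il1b and TGANTCA, with the same middle base, in the upstream window of Il1rn and in a window of Il11. Il1b is at chr2:129371090-129371389 on the minus strand, Il1rn at chr2:24336610-24336909 on the plus strand and Il11 at chr7:4778092-4778391 on the minus strand.
Il1b promoter: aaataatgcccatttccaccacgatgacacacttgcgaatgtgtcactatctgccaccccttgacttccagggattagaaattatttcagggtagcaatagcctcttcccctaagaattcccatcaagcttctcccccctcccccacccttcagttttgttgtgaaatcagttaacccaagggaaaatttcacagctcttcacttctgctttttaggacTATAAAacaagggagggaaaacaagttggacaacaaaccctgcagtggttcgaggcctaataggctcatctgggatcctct
Il1rn promoter: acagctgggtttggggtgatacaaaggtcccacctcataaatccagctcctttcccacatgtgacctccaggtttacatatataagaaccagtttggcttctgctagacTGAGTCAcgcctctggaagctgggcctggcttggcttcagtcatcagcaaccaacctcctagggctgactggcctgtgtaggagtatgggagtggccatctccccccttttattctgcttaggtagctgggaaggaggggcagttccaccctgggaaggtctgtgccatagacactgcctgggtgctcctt
Il11 promoter: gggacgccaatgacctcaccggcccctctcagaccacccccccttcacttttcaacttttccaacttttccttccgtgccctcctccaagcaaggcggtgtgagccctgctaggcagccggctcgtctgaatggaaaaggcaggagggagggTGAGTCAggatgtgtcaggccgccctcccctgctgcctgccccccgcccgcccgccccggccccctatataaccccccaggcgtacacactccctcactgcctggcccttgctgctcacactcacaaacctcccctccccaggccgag

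The deposited values are FPKM, fragment numbers divided by transcript length and by the mapped reads of the library, so that levels can be set side by side between genes. Zbp1 itself was at 86.0 and 62.0 FPKM in the siScr libraries and at 11.5 and 11.6 FPKM in the siZBP1 libraries, and it fell by 2.56 ± 0.16 (SE) on the log2(FPKM + 1) scale (adjusted p = 0.00322, limma, and 0.0748 or 0.0654 without siZBP1 replicate 1 or 2). Read numbers do not accompany the table. The spacing of low values puts the libraries at roughly 15 and 20 M (siScr) and 11 and 17 M fragments (siZBP1), an estimate too rough for counting intervals. Markers of macrophages were abundant in all libraries. The summed FPKM of the 20 markers found was 9369 to 10356 in siScr and 14211 to 14931 in siZBP1 libraries. By limma, 11 of the 19 tested passed as higher and none as lower, against 13.5% and 14.8% of all tested genes. All 5 osteoblast markers fell, with a sum of 332 to 410 FPKM in siScr and 59.7 to 64.0 FPKM in siZBP1 libraries, and of 11 mesenchymal markers tested 5 passed as lower and 1 as higher. Without siZBP1 replicate 1 or 2, the calls of these markers did not hold. Of 7 neutrophil markers, 5 (S100a9, Elane, Mpo, Ltf and Retnlg) were listed at 0 in every library. In bulk RNA, fewer cells of a type and less RNA per cell cannot be told apart, and the part of cell composition in the differences below was not tested.

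Among the cytokines and synthases, Il1b was higher, and Il1rn and Il11 were lower, in ZBP1-depleted mBMSCs. All 10 genes had separate groups, 5 with both siZBP1 libraries above both siScr libraries and 5 with both below. Over all genes with both means above 0, the corresponding shares were 30.9% above and 30.7% below. By the ratio of mean FPKM, 3 genes (Il1b, Il1a and Il6) were over 1.5-fold higher, 3 (Il1rn, Il11 and Ptges) over 1.5-fold lower and 4 within that range, against 10.7% of all genes higher and 13.8% lower. With 1 FPKM added to both means, only Il1b remained over 1.5-fold higher. The linear model of limma, fitted to log2(FPKM + 1) over the 11959 genes with a mean of at least 1 FPKM, tested 8 of the 10 genes. At an adjusted p under 0.05 it called 1 higher and 2 lower, against 13.5% of all tested genes called higher and 14.8% called lower. Il1b (mean 0.867 FPKM in siScr), Il11 (0.512 FPKM in siZBP1) and Ptges (0.720 FPKM in siZBP1) passed the limit only through their higher group. Without a filter on low values, 10 genes were tested, and 1 was called higher and 2 lower. The median difference was -0.25 over the 8 genes and 0.00 over all tested genes. Permuting the 4 libraries exactly could not bring 1 gene under p = 0.333, and the calls lean on the variance that limma shares between genes. With siZBP1 replicate 1 or 2 left out, the calls of limma did not hold, and the 3 genes called kept their direction.

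**Figure D2:**
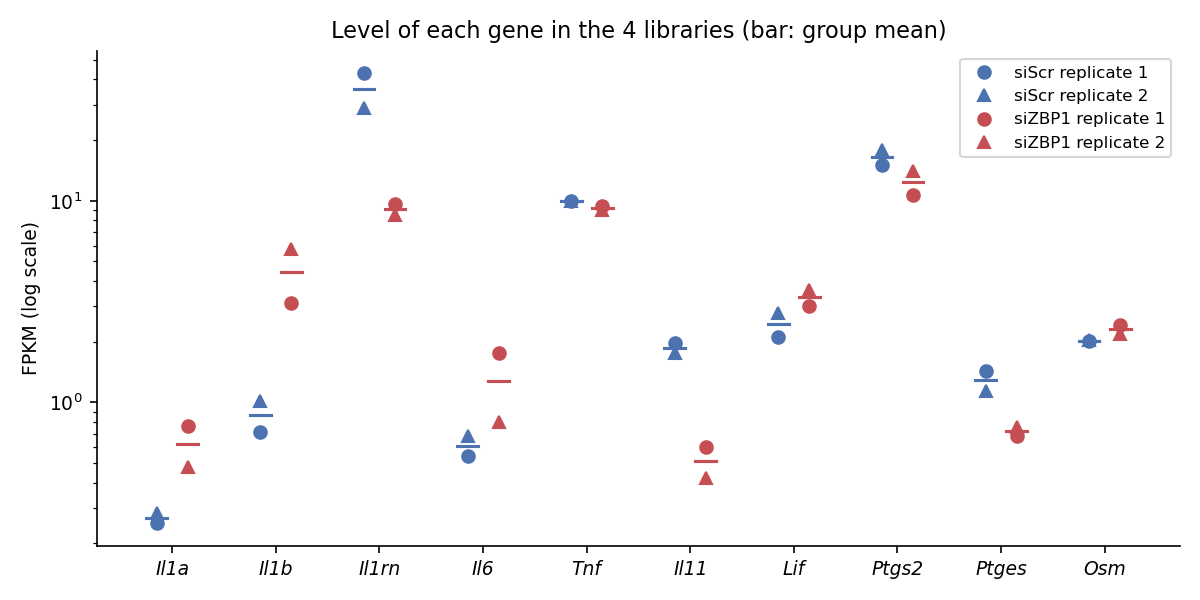
Level of each gene (x axis) in FPKM on a log scale (y axis) in the 2 siScr libraries (blue) and the 2 siZBP1 libraries (red), with circles for replicate 1, triangles for replicate 2 and bars for group means. In every gene the groups are separate, widely so in Il1b, Il1rn and Il11 and narrowly in Tnf and Osm.

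In siScr libraries the order of the levels was Il1rn, Ptgs2, Tnf, Lif, Osm, Il11, Ptges, Il1b, Il6 and Il1a, and it was the same in both libraries. The group means ran from 35.9 FPKM for Il1rn to 0.268 FPKM for Il1a. Among all 24346 genes, Il1rn stood at the 92.2 and 88.3 percentiles in siScr libraries and at the 72.7 and 70.6 percentiles in siZBP1 libraries. Il1b moved the other way, from the 49.7 and 51.2 percentiles to the 59.6 and 65.7 percentiles. In siZBP1 libraries Ptgs2 had the highest level. Il1rn and Tnf overlapped there, as did Il1b and Lif, and Il11 came last in both libraries, although its range overlapped that of Il1a.

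Il1b, the gene of the secreted cytokine interleukin-1β (GRCm38 chr2:129364570-129371139, minus strand), was at 0.714 and 1.02 FPKM in siScr libraries and at 3.10 and 5.77 FPKM in siZBP1 libraries. Both siZBP1 libraries were well above both siScr libraries, and they also differed from each other. The group means were 0.867 ± 0.217 and 4.43 ± 1.88 FPKM (SD, n = 2 each), a 5.11-fold higher mean in siZBP1. The difference was 1.5 ± 0.27 (SE) on the log2(FPKM + 1) scale, with a 95% interval of 0.79 to 2.21 (limma, Benjamini-Hochberg adjusted p = 0.021). A low gene changes less on this scale than in FPKM. With one library left out, the difference stayed between 1.14 and 1.86 but the adjusted p of limma lay between 0.0748 and 0.112. These FPKM correspond to roughly 15 and 28 fragments in siScr and 45 and 136 fragments in siZBP1 libraries. The siZBP1 library with the higher Il1b, replicate 2, also had the highest level of S100a8, a gene of neutrophils and monocytes, at 4.52 FPKM against 0.322 to 0.597 FPKM in the other libraries, whereas S100a9 was listed at 0 in all 4. In the same library the neutrophil gene Camp and the monocyte gene Ccr2 were at their lowest (0.122 and 0.836 FPKM). Ly6c2, a monocyte gene, was listed at 0 there. The part of cells with such genes in the level of Il1b was not tested. In replicate 1, Il1b was at 3.10 FPKM and S100a8 at 0.597 FPKM, each above both siScr libraries (S100a8 at 0.434 and 0.322 FPKM).

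Il1a, the gene of interleukin-1α, lies 54.6 kb from Il1b on the same strand (chr2:129299610-129309972). Its level was 0.252 and 0.284 FPKM in siScr and 0.761 and 0.478 FPKM in siZBP1 libraries. The siZBP1 values were the higher ones, and the mean ratio was 2.31, but each value rests on roughly 7 to 16 fragments. With a mean under 1 FPKM it was not tested in the model above. When genes down to a mean of 0.1 FPKM were admitted, its difference was 0.35 ± 0.12 (SE), with a 95% interval of 0.04 to 0.66 on the log2(FPKM + 1) scale, and the adjusted p of limma was 0.105.

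Il1rn, which encodes the interleukin-1 receptor antagonist (chr2:24336853-24351494, plus strand), had the highest level of the 10 genes in siScr libraries. It was at 42.9 and 28.9 FPKM in siScr libraries and at 9.69 and 8.51 FPKM in siZBP1 libraries. Both siScr libraries were well above both siZBP1 libraries, although they differed from each other more than the siZBP1 libraries did. The means were 35.9 ± 9.92 and 9.10 ± 0.838 FPKM (SD, n = 2 each), a 3.95-fold lower mean in siZBP1. On the log2(FPKM + 1) scale the difference was -1.85 ± 0.20 (SE), with a 95% interval of -2.37 to -1.33 (limma, adjusted p = 0.00711). The call held without siScr replicate 1 (-1.57, adjusted p = 0.0301, limma) and without siScr replicate 2 (-2.12, adjusted p = 0.018, limma). It was lost without siZBP1 replicate 1 (-1.93, adjusted p = 0.0943, limma) and without siZBP1 replicate 2 (-1.76, adjusted p = 0.0879, limma). RefSeq has 3 start sites for Il1rn, and the deposited level does not separate their transcripts, which give secreted and intracellular forms of the antagonist.

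The ratio of antagonist to agonist within a library was taken up after these values had been seen, and it is given without a test. Il1rn exceeded Il1b 60.1-fold and 28.3-fold in the siScr libraries, and 3.13-fold and 1.48-fold in the siZBP1 libraries. On the log2 scale the ratio was 5.37 ± 0.77 in siScr and 1.10 ± 0.77 in siZBP1 (SD, n = 2 each), a difference of -4.26, or 19.2-fold. With one library left out it was 13.2-fold to 28.0-fold. Against the sum of Il1a and Il1b, Il1rn was 44.5-fold and 22.2-fold higher in siScr and 2.51-fold and 1.36-fold higher in siZBP1 libraries. In each library the antagonist transcript was still the more abundant one.

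**Figure D3:**
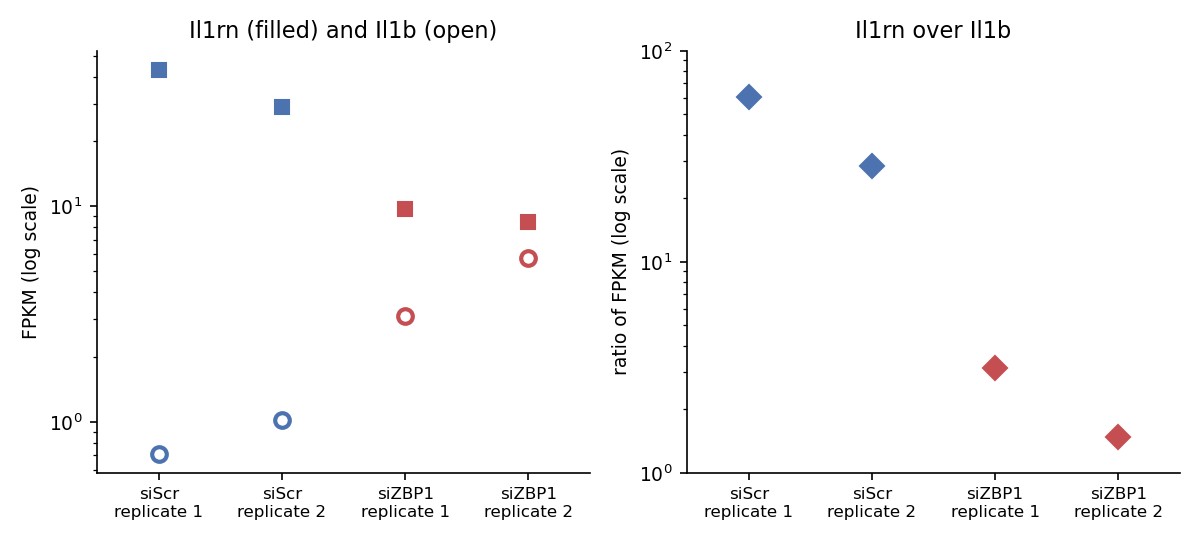
Left, FPKM of Il1rn (filled squares) and Il1b (open circles) on a log scale in each of the 4 libraries (x axis). Right, the ratio of Il1rn to Il1b within each library, on a log scale, which was 60.1 and 28.3 in siScr (blue) and 3.13 and 1.48 in siZBP1 libraries (red).

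The receptor of both agonist and antagonist did not pass the test. Il1r1 was at 1.58 and 1.30 FPKM in siScr and 0.905 and 1.27 FPKM in siZBP1 libraries (difference -0.23, 95% interval -0.64 to 0.18, limma adjusted p = 0.324), and its partner Il1rap was at 3.54 to 3.86 and 3.89 to 4.06 FPKM. Of the IL-1 family ligands and receptors, these receptors included, 8 of 16 were tested. Of these, 1 passed as higher and 1 as lower, close to the 13.5% and 14.8% of all tested genes. Il18rap, a subunit of the interleukin-18 receptor, rose by 0.76 (adjusted p = 0.0168, limma). Il18bp, the secreted protein that binds and blocks interleukin-18, was at 14.4 and 12.1 FPKM in siScr and 7.42 and 7.84 FPKM in siZBP1 libraries, a difference of -0.72 (adjusted p = 0.0114, limma). Of 10 genes that carry the signal inside the cell, 3 kinases rose (Irak1 by 0.31, Irak4 by 0.28 and Map3k7 by 0.27, adjusted p from 0.0201 to 0.0367, limma) and the adaptor Tab2, named after its value was seen, fell by 0.25 (adjusted p = 0.0184, limma). Without either siZBP1 library none of these calls remained (adjusted p from 0.0962 to 0.198, limma), and Il18rap (0.0517 without siScr replicate 1) and the 4 signalling genes (0.0518 to 0.131) were also lost when a siScr library was left out. With all 4 libraries, Irak4 and Map3k7 were lost without a filter on low values (0.051 and 0.0503) and without a variance trend (0.0546 and 0.0594).

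Tnf, the gene of the cytokine TNF (chr17:35199381-35202007, minus strand), was at 9.93 and 10.003 FPKM in siScr and 9.41 and 9.03 FPKM in siZBP1 libraries. The replicates lay close together, and the siZBP1 values were slightly below the siScr values. The means were 9.97 ± 0.048 and 9.22 ± 0.269 FPKM (SD, n = 2 each). The difference was -0.10 ± 0.06 (SE) on the log2(FPKM + 1) scale, with a 95% interval of -0.27 to 0.06 (adjusted p = 0.283, limma). This interval was the narrowest of the 8 genes tested.

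Both TNF receptors were abundant, with Tnfrsf1a at 83.1 to 84.1 FPKM in siScr and 89.5 to 89.97 FPKM in siZBP1 libraries (adjusted p = 0.109, limma). Tnfrsf1b was at 64.3 to 67.5 and 59.1 FPKM (adjusted p = 0.0611, limma). For TNF ligands, receptors and shedding, 13 genes were tested. Of these, 3 passed as higher and 1 as lower, against 13.5% and 14.8% of all tested genes. Timp3, a secreted inhibitor of the protease that sheds TNF from the cell surface, fell from 902 and 732 FPKM to 128 and 140 FPKM, a difference of -2.59 (adjusted p = 0.00221, limma). The protease itself, Adam17, named after its value was seen, rose by 0.31 (adjusted p = 0.011, limma), and its regulator Rhbdf2 rose by 0.49 (adjusted p = 0.00875, limma). Birc3, an inhibitor of apoptosis in the TNF receptor complex, rose by 0.46 (adjusted p = 0.0103, limma). These 4 calls were lost without siZBP1 replicate 1 or 2, at adjusted p from 0.0518 to 0.114 (limma), and without siScr replicate 1 that of Timp3 alone remained (0.015).

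Il6, the gene of interleukin-6 (chr5:30013114-30019981, plus strand), was at 0.541 and 0.681 FPKM in siScr and at 1.76 and 0.803 FPKM in siZBP1 libraries. One siZBP1 library was well above the others, and the other was close to the siScr libraries. The mean ratio was 2.10, and it was 1.31 without siZBP1 replicate 1. Its mean over all libraries, 0.947 FPKM, was just below the limit of the test, and with genes down to 0.1 FPKM admitted the difference was 0.47 ± 0.22 (SE), with a 95% interval of -0.12 to 1.06 (adjusted p = 0.205, limma). The library with more Il6 was replicate 1, which was not the library with more Il1b.

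Il11, a gp130 cytokine of stromal cells and osteoblasts (chr7:4772373-4782859, minus strand), was at 1.97 and 1.75 FPKM in siScr and at 0.601 and 0.423 FPKM in siZBP1 libraries. The groups were separate and each pair of replicates was close. The means were 1.86 ± 0.16 and 0.512 ± 0.126 FPKM (SD, n = 2 each), a 3.63-fold lower mean in siZBP1. The difference was -0.92 ± 0.14 (SE) on the log2(FPKM + 1) scale, with a 95% interval of -1.29 to -0.55 (adjusted p = 0.0146, limma). The siZBP1 levels rest on roughly 6 to 14 fragments a library. Without siScr replicate 2 the call held (-0.98, adjusted p = 0.034, limma). It was lost without siScr replicate 1 (-0.86, adjusted p = 0.052, limma), and without siZBP1 replicate 1 or 2 (-1.01 and -0.84, adjusted p = 0.0877 and 0.0878, limma). All 5 osteoblast markers fell between the same groups, and the part of this in the level of Il11 was not tested.

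Lif and Osm are neighbours, 16.5 kb apart on the plus strand of chromosome 11. Lif (chr11:4257557-4272514) was at 2.12 and 2.78 FPKM in siScr and 3.02 and 3.63 FPKM in siZBP1 libraries, a difference of 0.33 ± 0.15 (SE) with a 95% interval of -0.06 to 0.72 (adjusted p = 0.163, limma). Osm (chr11:4236420-4241026), a cytokine mostly of macrophages and other blood cells, was at 2.005 and 2.04 FPKM in siScr and 2.43 and 2.19 FPKM in siZBP1 libraries, a difference of 0.13 ± 0.11 (SE) with a 95% interval of -0.15 to 0.41 (adjusted p = 0.414, limma). For both genes the siZBP1 libraries had the higher values, by less than the test could tell from the spread. The ratio of Il11 to Lif, chosen after the values were seen, was 0.933 and 0.630 in siScr and 0.199 and 0.117 in siZBP1 libraries.

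The receptor subunits of LIF and oncostatin M fell, whereas Il6st, Il6ra and Il11ra1 did not pass the test. Lifr was at 23.2 and 21.8 FPKM in siScr and 9.47 and 9.13 FPKM in siZBP1 libraries, a difference of -1.19 ± 0.06 (SE) on the log2(FPKM + 1) scale (adjusted p = 0.0025, limma). Osmr was at 14.0 and 11.9 FPKM in siScr and 8.64 and 8.30 FPKM in siZBP1 libraries, a difference of -0.55 ± 0.09 (SE) (adjusted p = 0.0179, limma). Both subunits were thus lower in each siZBP1 library while Lif and Osm, their ligands, were not called. The shared subunit Il6st was at 31.9 to 33.5 and 34.4 to 36.2 FPKM (adjusted p = 0.201, limma), Il6ra had a difference of 0.26 (adjusted p = 0.0605, limma) and Il11ra1 one of 0.14 (adjusted p = 0.381, limma). Il6ra did pass with a filter at 5 FPKM (0.0444), with equal medians (0.0459) and with a robust variance prior (0.0407). Of 10 gp130 ligands and receptors tested, 3 passed as lower, Lifr and Osmr among them, and none as higher by limma (2 at an unadjusted p under 0.05). Downstream of gp130, 3 of 11 genes tested passed as higher and none as lower (2 at an unadjusted p under 0.05). Over all tested genes, 13.5% passed as higher and 14.8% as lower. Stat3 rose by 0.24, Pim1, a kinase induced by Stat3, by 0.42, and the coregulator Bcl3 by 0.64 (adjusted p from 0.00938 to 0.031, limma). Jak2 and Pias3, named after their values were seen, had differences of -0.49 and -0.20 and did not pass (adjusted p = 0.0539 and 0.0674, limma). The feedback genes Socs3 and Socs1, also named afterwards, had differences of -0.11 and 0.02 (adjusted p = 0.259 and 0.954, limma). Cish, below the limit of the test, had a 1.71-fold lower mean in siZBP1. Of these calls of ligands, receptors and transducers, none remained without siZBP1 replicate 1 or 2 (adjusted p from 0.0607 to 0.172, limma). Lifr and Bcl3 kept theirs without either siScr library, Osmr lost it without siScr replicate 1 (0.0597), as did Pim1, and Stat3 lost it without either, and with all 4 libraries when no variance trend was used (0.0676).

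**Figure D4:**
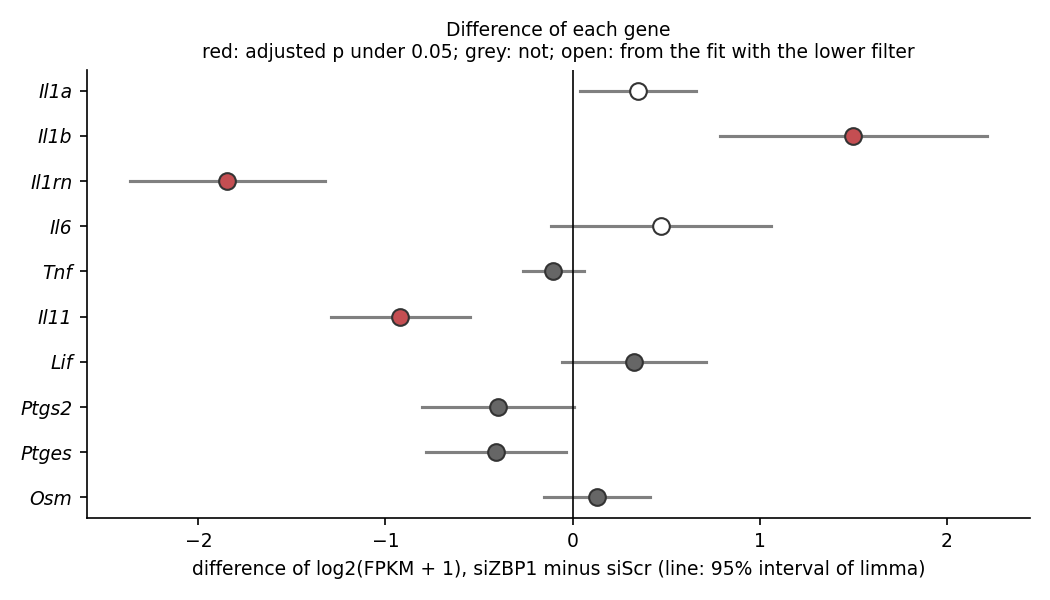
Difference of log2(FPKM + 1), siZBP1 minus siScr (x axis), for each of the 10 genes (y axis), with the 95% interval of limma. Il1b lies to the right and Il1rn and Il11 to the left with adjusted p under 0.05 (red), grey points did not pass, and the open points of Il1a and Il6 come from the fit with a lower limit on the mean FPKM.

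Ptgs2, the inducible cyclooxygenase (chr1:150100031-150108227, plus strand), was at 15.1 and 17.9 FPKM in siScr and at 10.6 and 14.1 FPKM in siZBP1 libraries. The highest siZBP1 value was just below the lowest siScr value. The means were 16.5 ± 1.98 and 12.3 ± 2.41 FPKM (SD, n = 2 each), a 1.34-fold lower mean in siZBP1, and the difference was -0.40 ± 0.15 (SE), with a 95% interval of -0.80 to 0.01 (adjusted p = 0.123, limma). Ptges, the inducible prostaglandin E synthase (chr2:30889471-30929863, minus strand), was at 1.43 and 1.14 FPKM in siScr and at 0.683 and 0.757 FPKM in siZBP1 libraries. Its mean was 1.78-fold lower in siZBP1, and the difference was -0.41 ± 0.14 (SE), with a 95% interval of -0.78 to -0.03 (adjusted p = 0.099, limma). Both synthases thus had lower values in each siZBP1 library, and neither passed the test. Ptges did pass when the variance was not modelled on the level (adjusted p = 0.0437, limma). Its mean over all libraries, 1.00 FPKM, was just inside the limit of the test.

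Of the other prostanoid synthesis genes, 7 were tested. By limma, 2 passed as higher and none as lower, against 13.5% and 14.8% of all tested genes. Hpgds, which makes prostaglandin D2, was at 43.2 and 45.2 FPKM in siScr and at 72.6 and 70.3 FPKM in siZBP1 libraries, a difference of 0.68 ± 0.05 (SE) (adjusted p = 0.00343, limma). Tbxas1, the thromboxane synthase, was at 20.5 and 25.2 FPKM in siScr and 35.6 and 33.4 FPKM in siZBP1 libraries, a difference of 0.58 ± 0.11 (SE) (adjusted p = 0.0219, limma). Both enzymes are known in macrophages, whose summed markers also stood higher in siZBP1 libraries, and the part of that in these levels was not tested. The genes common to all prostanoids were not called: Pla2g4a, which frees arachidonic acid, had a difference of -0.01 and Ptgs1, the constitutive cyclooxygenase, one of 0.34 (adjusted p = 0.916 and 0.108, limma). Ptges2 (-0.21), Ptges3 (0.15) and Fam213b (-0.16) were not called either, at adjusted p from 0.0603 to 0.319 (limma), although Ptges3 passed with equal medians (0.0354). Ptgis, the prostacyclin synthase, named after its values were seen, was at 1.25 and 1.78 FPKM in siScr and 0.0498 and 0.153 FPKM in siZBP1 libraries. Through the siZBP1 values its mean over all libraries, 0.808 FPKM, was below the limit of the test. Its mean was 14.9-fold lower in siZBP1, and 9.90-fold or 30.5-fold lower without siZBP1 replicate 1 or 2. The calls of Hpgds and Tbxas1 were lost without either siZBP1 library (adjusted p from 0.0653 to 0.163, limma), and that of Tbxas1 without siScr replicate 1 (0.0521).

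The transporter that takes prostaglandins into cells, Slco2a1, fell from 4.16 and 2.59 FPKM to 0.355 and 0.568 FPKM, a difference of -1.56 ± 0.22 (SE) (adjusted p = 0.0117, limma). Ptgr2, a reductase that inactivates prostaglandin metabolites, rose by 0.39 (adjusted p = 0.0183, limma), and the other 4 genes tested for transport and breakdown did not pass. Of 3 prostanoid receptors tested, Ptger4, a receptor of prostaglandin E2, rose by 0.41 (adjusted p = 0.0219, limma). Thus 1 of 6 transport and breakdown genes passed as higher and 1 as lower, and 1 of 3 receptors as higher. Over all tested genes, 13.5% passed as higher and 14.8% as lower, and with so few genes these shares cannot be set apart. Ptger3, another prostaglandin E2 receptor, named after its values were seen, was at 0.276 and 0.353 FPKM in siScr and 0.0559 and 0.0344 FPKM in siZBP1 libraries, below the limit of the test. With a siZBP1 library left out, Slco2a1, Ptgr2 and Ptger4 were at adjusted p from 0.0921 to 0.146 (limma). Without siScr replicate 1, Ptgr2 and Ptger4 were lost (0.0629 and 0.0611), and without siScr replicate 2, Ptger4 (0.0738).

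**Figure D5:**
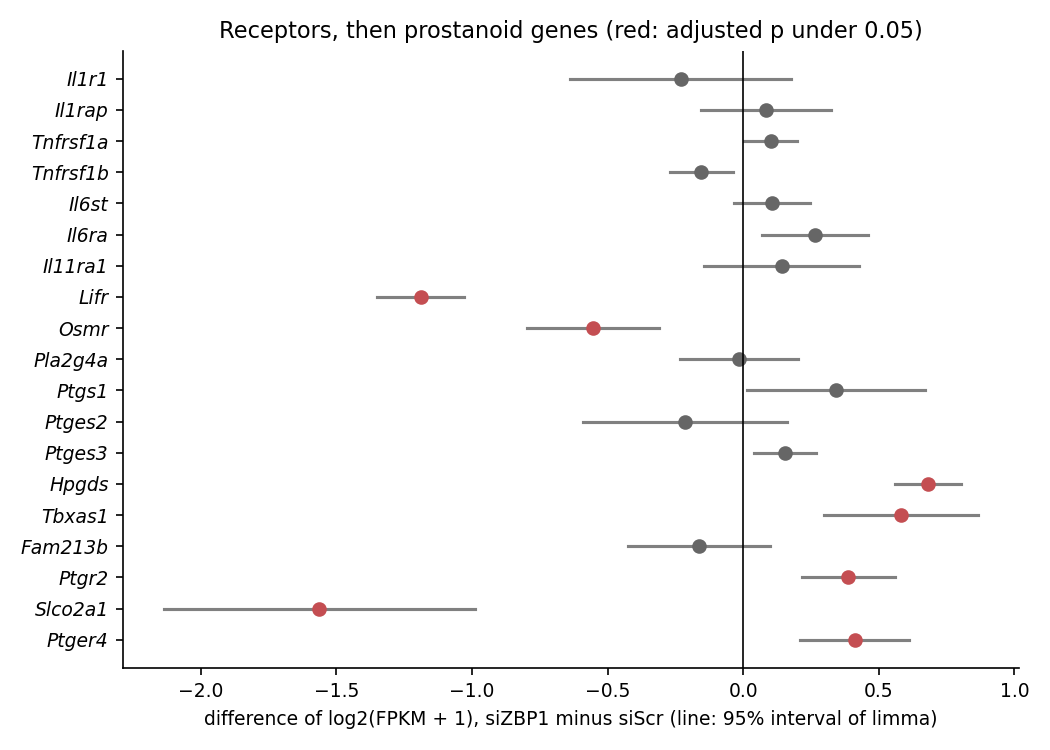
Difference of log2(FPKM + 1), siZBP1 minus siScr (x axis), with the 95% interval of limma, for the cytokine receptors followed by genes of prostanoid synthesis, transport, breakdown and reception (y axis). Lifr, Osmr and Slco2a1 lie to the left and Hpgds, Tbxas1, Ptgr2 and Ptger4 to the right with adjusted p under 0.05 (red), and the other genes (grey) did not pass.

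Among 12 factors that act on the stability of cytokine mRNA, 2 passed, in opposite directions. Zfp36l1 rose by 0.43 and its relative Zfp36l2 fell by 0.44 (adjusted p = 0.0091 and 0.0108, limma), while Zfp36 itself, at 44.7 to 53.9 FPKM in siScr and 49.6 to 53.0 FPKM in siZBP1 libraries, overlapped between groups. Among 17 transcription factors and regulators of cytokine promoters tested, 5 passed as higher and 1 as lower. Over all tested genes, 13.5% passed as higher and 14.8% as lower. The NF-κB subunits Relb and Nfkb1 rose by 0.46 and 0.29, the inhibitor Nfkbia by 0.32, Cebpb by 0.38 and Fosl2 by 0.37 (adjusted p from 0.0114 to 0.025, limma), of which Nfkb1, Nfkbia and Fosl2 are named after their values were seen. Fosl1, a component of AP-1, fell by 0.62 (adjusted p = 0.0375, limma), a call lost with quantile normalization (0.0638). None of these 8 calls remained without siZBP1 replicate 1 or 2, while those of Zfp36l1, Zfp36l2 and Fosl2 held without either siScr library. The calls of Nfkb1, Nfkbia and Fosl1 held without siScr replicate 2 only. Relb and Cebpb lost theirs with any library left out, with differences of 0.39 to 0.53 and 0.28 to 0.47.

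Of 17 genes that IL-1 and TNF are known to induce in stromal cells, 10 were tested. At an adjusted p under 0.05, limma called 5 higher and none lower, against 13.5% and 14.8% of all tested genes. The list was written with earlier results of these data known, so these shares carry no test. Cxcl5, a chemokine for neutrophils, was at 0.713 and 0.502 FPKM in siScr and at 3.41 and 2.95 FPKM in siZBP1 libraries (difference 1.38, adjusted p = 0.00628, limma). Ccl2, a chemokine for monocytes, was at 24.6 and 39.4 FPKM in siScr and at 61.1 and 57.5 FPKM in siZBP1 libraries (difference 0.91, adjusted p = 0.0431, limma). With all 4 libraries, the call of Ccl2 was lost without a filter on low values (0.0671), without a variance trend (0.0674) and with a robust variance prior (0.129). The metalloproteinase Mmp3 was at 0.0828 and 1.00 FPKM in siScr and at 10.3 and 9.95 FPKM in siZBP1 libraries (difference 2.92, adjusted p = 0.00686, limma). Its mean was 18.7-fold higher in siZBP1, but 10.1-fold or 123-fold higher without siScr replicate 1 or 2. Icam1 and Cxcl10, named after their values were seen, rose by 0.44 and 0.35 (adjusted p = 0.00667 and 0.023, limma). Csf2 and Lcn2 were listed at 0 in all libraries. The 5 calls held without siScr replicate 1, all but that of Cxcl10 (adjusted p = 0.0542, limma) without siScr replicate 2, and none without siZBP1 replicate 1 or 2 (adjusted p from 0.0689 to 0.223, limma).

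Over the 11 pathway lists together, 141 genes were in the table and 107 were tested, of which 25 (23.4%) passed as higher and 9 (8.41%) as lower, with a median difference of 0.12 on the log2(FPKM + 1) scale. Over all tested genes, 13.5% passed as higher and 14.8% as lower, with a median of 0.00. The lists were written with earlier results of these data known, so these shares carry no test. With siZBP1 replicate 1 or 2 left out, none of these genes passed the adjusted limma test, and 34 of 34 kept their direction. All 34 also kept it without siScr replicate 1 or 2. Without siScr replicate 1, the counts were 11 higher and 6 lower.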

How the data were processed

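RNA from mBMSCs was sequenced from TruSeq libraries, 2 of siScr and 2 of siZBP1. Per the methods, the authors mapped the reads with TopHat to mm10 and extracted FPKM per gene with HTSeq (the submitters' processing notes also list Cufflinks). The deposited FPKM are normalized to transcript length and mapped reads, they come without counts, and the annotation is not given in the sources used here. FPKM sum to 477974 to 492166 a library. A lower limit of 1 on the mean FPKM left 11959 genes, of which log2(FPKM + 1) was fitted with limma (3.58.1, R 4.3.3) with a variance trend, two-sided, with Benjamini-Hochberg adjustment over all genes tested at 0.05. The scale compresses changes of low genes. The limit was set on the mean over all libraries. Genes such as Il1b, Il11, Ptges, Cxcl5, Mmp3, Slco2a1, Il18rap and Fosl1 therefore entered only through the group where they were higher. The fit was also run on simulated data in which the residual spreads were shuffled between genes. That run cannot speak for the calls of genes at low levels. The 2 columns of the authors' means were not used.

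Genes were grouped by symbol. Named beside the 10 genes and Zbp1 were receptor subunits and prostanoid synthases with a mean of at least 1 FPKM and, from each other list, up to 3 called genes with separate groups and the largest change. 1 gene that this rule names is not reported here. The genes, lists and rule were chosen with earlier results of these data known, and the motifs and ratios after the values had been seen. Replicate numbers are not stated to mark a shared mouse or day, so no block entered the main model. Depth was estimated from the spacing of low values of genes with a single transcript of at least 2000 bases. Positions and 3′ UTRs came from GENCODE M21 (GRCm38), promoters from RefSeq. Python 3.11.15 was used with pandas 2.3.3. The alternatives were other pseudocounts, filters, scalings and variance models, a replicate block and leaving out each library.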

Additional observations from a re-analysis of the deposited data

How the results depend on the processing

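The differences of the 8 tested cytokine and synthase genes kept their direction under all 14 alternatives in which they were tested. With all libraries, the 3 calls held in 25 of 25 values, and with the replicate block in 3 of 3. The calls of the named pathway genes were lost in 9 values with all libraries (Irak4, Map3k7, Stat3, Fosl1 and Ccl2) and kept in 230. The replicate block, with a correlation of -0.063 between the deviations of same-numbered libraries, gave 3 genes lower, since Ptgs2 passed (adjusted p = 0.022, limma), and 1 higher, with 1654 and 1465 among all genes. A filter at 5 FPKM left 3 of the genes, of which 1 was lower and 0 higher. Over 1.5-fold higher was 1 gene with 1 FPKM added to both means and 1 with a mean of at least 1 FPKM. With each library left out, between 0 and 2 of the genes were called lower and between 0 and 0 higher, and of the pathway lists between 0 and 10 genes lower and between 0 and 19 higher. Of all genes, 23 to 1297 were called lower and 22 to 1019 higher, and the Zbp1 difference ran from -2.79 to -2.33 (highest adjusted p 0.0748, limma). Of calls with one library left out, 3 of 6 held without a siScr library and 0 of 6 without a siZBP1 library. Such a fit assumes that the lone library varies like the other group and has fewer residual degrees of freedom. Pla2g4a (-0.01) changed sign, to 0.02 with equal medians, and ran from -0.11 to 0.09 with a library left out. Depth limits Il1a, Il6 and the siZBP1 levels of Il11, which rest on few fragments.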
